A study of Mus musculus with 8 samples.

Results

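The mouse genes named Zfp with a number encode zinc finger proteins, the largest group of DNA-binding proteins in mammals. Of the 351 such genes on the array, 293 were measured above background in liver and are described here (Zfp69 was set aside by the rule that chose them). A gene was taken when a probe was flagged well above background on all 4 NZO or all 4 B6 arrays, and the brightest such probe stood for it. The genes were thus chosen by these flags of the scanner software, so their detection is a description and not a result. Of the 293 genes, 268 were above background on all 8 arrays, 7 on all NZO but not all B6 arrays, and 18 on all B6 but not all NZO arrays. Those 25 genes entered through 1 strain alone, and where one of them is described, the number of arrays above background is given. Just outside the rule, 9 of the 58 genes left out reached 3 arrays of a strain, among them Zfp786 and Zfp418 with 3 arrays in both, and 33 were not above background on any array.

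NZO (strain NZO/HiBomDife) is an inbred obese mouse prone to diabetes, and B6 (C57BL/6) is a lean strain. The livers came from 4 males of each strain, 6 weeks old, and both strains had received a diet with 45% fat. Each RNA was hybridised to a 1-colour Agilent array, 1 array per mouse. Levels are given as the log2 processed signal minus the 75th percentile of the array, and differences as log2 fold changes of NZO against B6. Diet, age and sex did not vary. The strains differ at very many loci and in body weight, and the parts of these cannot be told apart.

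A zinc finger of this kind is a short loop of protein held by a zinc ion, and tandem fingers joined by a conserved linker read a stretch of DNA. Many numbered zinc finger genes of the mouse lie in tandem clusters that arose by duplication, and many of their proteins carry a KRAB domain. That domain binds Trim28, which brings the histone methyltransferase Setdb1 and other repressors to the site, and the best-known targets are retroelements and imprinted regions. The members are known to differ between mouse strains in number and sequence.

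The tissue matched its label. Alb, Ttr, Apoa1, Cps1 and Tat, 5 markers of hepatocytes, were above background on all 8 arrays, with mean levels from 6.05 to 11.2, and 0 of them passed the thresholds. In the adipocyte list, Adipoq, Plin1 and Lep were not above background on all arrays of either strain, while Cidec, Fabp4 and Car3 were above it on all 8. None of the latter was called, and Car3, the most abundant (mean level 9.21 in NZO and 8.74 in B6), had a log2 fold change of 0.47 (adjusted p 0.0116 by limma), below the fold threshold. Cidec had 0.42 and Fabp4 -0.30, and neither passed. The summed level of the adipocyte list, which Car3 dominates, ranged from 9.14 to 9.33 on the NZO arrays and from 8.68 to 8.91 on the B6 arrays. Of the exocrine pancreas list, Pnlip, Cela3b, Cpa1 and Prss2 were not above background on all arrays of either strain, while Cela1 and Ctrb1 were on all 8 and were not called. That list, led by Ctrb1 (0.58 and 0.21), had a summed level of 0.36 to 1.07 in NZO and of 0.22 to 0.69 in B6. Among red cell markers, 2 of 4 were higher in NZO, Hba-a1 by 1.00 and Alas2 by 0.90 on the log2 scale. The summed level of the 4 red cell markers, led by Hba-a1, ranged from 8.19 to 8.88 on the NZO arrays and from 7.28 to 7.70 on the B6 arrays. Of 5 leukocyte markers 1 was lower in NZO, Itgax, a gene of dendritic cells and some macrophages (fitted value -2.04, above background on 2 NZO arrays), and the median log2 fold change of the list was -0.42. Ptprc (-0.52) and Cd68 (-0.42) were below 0, Cd3e (0.33) and Lyz2 (0.41) above it, and none of these 4 was called. The summed level, led by Cd3e, was 4.23 on NZO 007, between 3.44 and 3.51 on the other NZO arrays and between 3.44 and 3.74 in B6. Muscle transcripts stood apart on 1 array: Acta1, Myh4 and Tnnt3 summed to 4.06 on NZO 007, against -3.05 to -1.80 on the other NZO arrays and -1.39 to 2.44 on the B6 arrays, and Ckm was not above background on all arrays of either strain. The part of these cells in the differences below was not tested. In bulk liver, fewer cells of a type and less RNA per cell cannot be told apart.

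Across the family, the strains differed little on average and strongly in single genes. By limma with Benjamini-Hochberg adjustment over all 20140 genes tested, with thresholds of 0.05 for the adjusted p and 0.7 for the log2 fold change, 15 of the 293 genes were higher in NZO and 19 were lower, or 11.6% of the family. On the whole array 9.46% of the genes passed the same thresholds, 4.44% higher and 5.02% lower, so the family stood near the background. With limma's p unadjusted and the same fold threshold, 16 were higher and 21 lower, against 11.9% of all genes. Among the 268 genes above background on all arrays, 12 were higher and 9 lower (7.84%), and 7.79% of all such genes on the array passed. With the slide as a fixed block 7 were higher and 8 lower (4.71% of all genes passed), and with the deposited raw intensities, unscaled between arrays, 6 were higher and 19 lower, where 7.47% of all genes passed and their median was -0.15. The median log2 fold change of the family was 0.00 and that of all genes 0.03. In 70 of the 293 genes the 4 values of one strain all lay above the 4 of the other, while 22.4% of all genes did so. The number of lower genes rested on single arrays: it was 12 without NZO 007, 12 without NZO 003, 12 without B6 009 and 11 without B6 010. On the whole array 1018, 970, 862 and 889 genes were lower in the same order, against 1011 with all arrays.

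**Figure D1:**
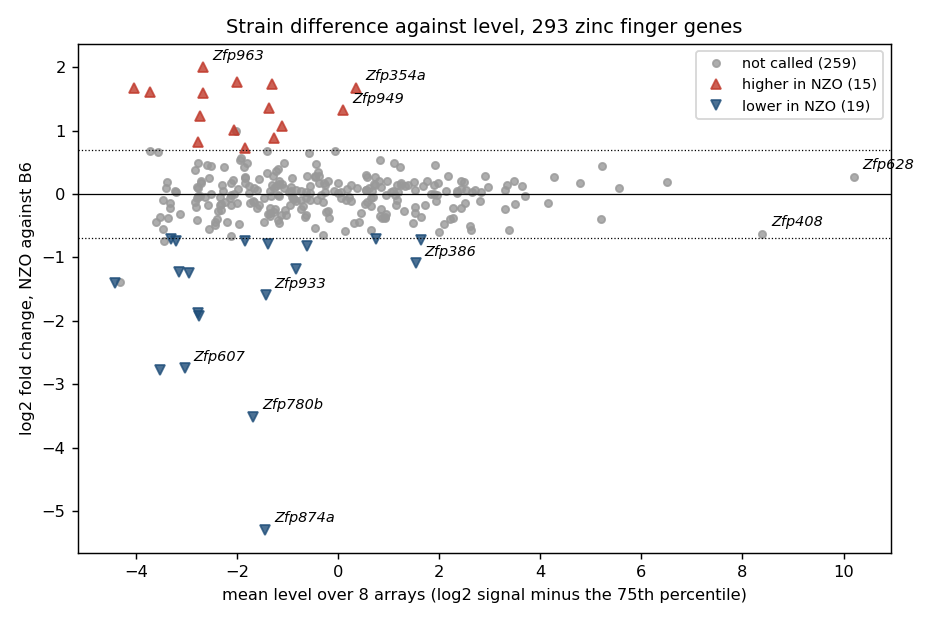
Log2 fold change of NZO against B6 (y axis) against the mean level over the 8 arrays (x axis, log2 signal minus the 75th percentile) for 293 zinc finger genes; triangles mark the 15 genes higher and the 19 lower in NZO, dots the 259 not called, and dotted lines the fold threshold of 0.7. The called genes lie at low and middle levels, down to Zfp874a at -5.29, and none lies above a level of 1.65.

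The family was dim. Its median level was -0.73, against 0.33 for all genes tested. When all genes of the array were sorted by signal into 3 equal ranges, 128 of the 293 fell in the dimmest range, 119 in the middle and 46 in the brightest. In the dimmest range 26 of 128 were called, or 20.3%, where 12.9% of all genes in that range were. This range held all 25 genes that entered through 1 strain, and on all 8 arrays 13 of 103 were called, against 386 of 4763 of all genes. The middle range held 8 called genes (6.72%, against 9.28% of all genes there). In the brightest 0 of 46 were called at either the adjusted or the unadjusted p, where 6.15% of all genes passed by limma's adjusted p. A probe's signal also depends on its own sequence, so these ranges sort probes by brightness and do not rank the transcripts.

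Genes inside clusters made up most of the called ones. A cluster was a run of at least 4 numbered zinc finger genes on the array with at most 500 kb between neighbouring probe starts, whether detected or not, and 20 such clusters held 169 genes, 148 of them above background. Inside clusters 24 of 148 genes were called (16.2%), 9 higher and 15 lower, and outside 10 of 145 (6.90%), 6 higher and 4 lower, beside 9.46% of all genes. The clustered genes were also dimmer, with a median level of -1.07 against -0.37 outside. Among genes above background on all arrays, 12 of 130 in clusters and 9 of 138 outside were called, beside 7.79% of all such genes. Of the 128 pairs of neighbouring measured genes within a cluster, both genes were called in 8 pairs and in the same direction in 6. Only in the pair of Zfp354b and Zfp354a were both genes above background on all 8 arrays. Every other such pair held a gene that had entered through 1 strain alone, the strain where it is high. These counts are therefore a description, and the share of such pairs among all genes was not computed.

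The chromosome 11 cluster held 4 higher genes and 1 lower. Of these, Zfp354c and Zfp879 had entered through NZO alone and Zfp454 through B6 alone, each the strain where it is high, so the count is a description beside the 9.46% called among all genes, and Zfp354a and Zfp354b were the genes above background on all 8 arrays. It spanned 259.8 kb of probe starts (mm9, chr11:50624756-50884589) and its 6 genes were all measured: Zfp354c, Zfp879, Zfp454, Zfp2, Zfp354b and Zfp354a in the order of their probes. Zfp354a, Zfp354b and Zfp354c are the Kid genes, KRAB repressors first described in kidney. On the arrays NZO 007, 003, 009 and 011, in this order throughout, Zfp354a lay at 1.02, 1.27, 1.24 and 1.26. On the arrays B6 011, 010, 015 and 009, likewise in this order, it lay at -0.54, -0.19, -0.74 and -0.46. All NZO values were above all B6 values. NZO exceeded B6 by 1.68 on the log2 scale (standard error 0.13, adjusted p by limma 0.000101).

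Zfp354b lay at -1.48, -0.99, -0.92 and -1.09 in NZO and at -3.10, -2.37, -3.19 and -2.85 in B6, a log2 fold change of 1.76 (0.20, adjusted p 0.000787). Zfp879, a KRAB zinc finger gene next to Zfp354c, lay at -2.08, -1.99, -1.61 and -1.83 in NZO and at -3.06, -3.74, -4.04 and -3.02 in B6, where 3 of 4 arrays were above background (1.59, standard error 0.25, adjusted p 0.00339). Zfp354c was above background on all 4 NZO arrays, at -3.69, -3.16, -3.11 and -2.81, and on none of B6. It was therefore at least 2.07-fold higher in NZO (adjusted p 0.00508). For this bound and those given later, a dim array counted with the larger of its own value and the dimmest level that was still above background on that array. Zfp2, between Zfp454 and Zfp354b, had a log2 fold change of 0.67 (0.24, 3 B6 arrays above background) and did not pass (adjusted p 0.11). On the slide that held arrays of both strains, the differences were 1.73 for Zfp354a, 1.79 for Zfp354b and 1.90 for Zfp879.

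Zfp454 was the exception in this cluster, and its probes went opposite ways. The brighter probe, at chr11:50686257-50686316, was lower in NZO, at -4.40, -3.96, -3.58 and -2.93 (above background on 2 arrays), against -1.98, -1.77, -2.02 and -1.57 in B6 (fitted log2 fold change -1.88, standard error 0.29, adjusted p 0.00336). The dimmer probe, at chr11:50696687-50696746, some 10.4 kb further along the chromosome and upstream on the gene's strand, was above background on all 4 NZO arrays and on no B6 array, and at least 2.11-fold higher in NZO. No other gene of the family had probes past the thresholds in both directions. The stretches below are the starts of both probes as the files list them, shown because the same gene would be called lower by one and higher by the other:
Zfp454 probe lower in NZO: ccacagttggatagtagtgcctttttattg
Zfp454 probe higher in NZO: tttcccctggaggaagtggaagaatgtgtg

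**Figure D2:**
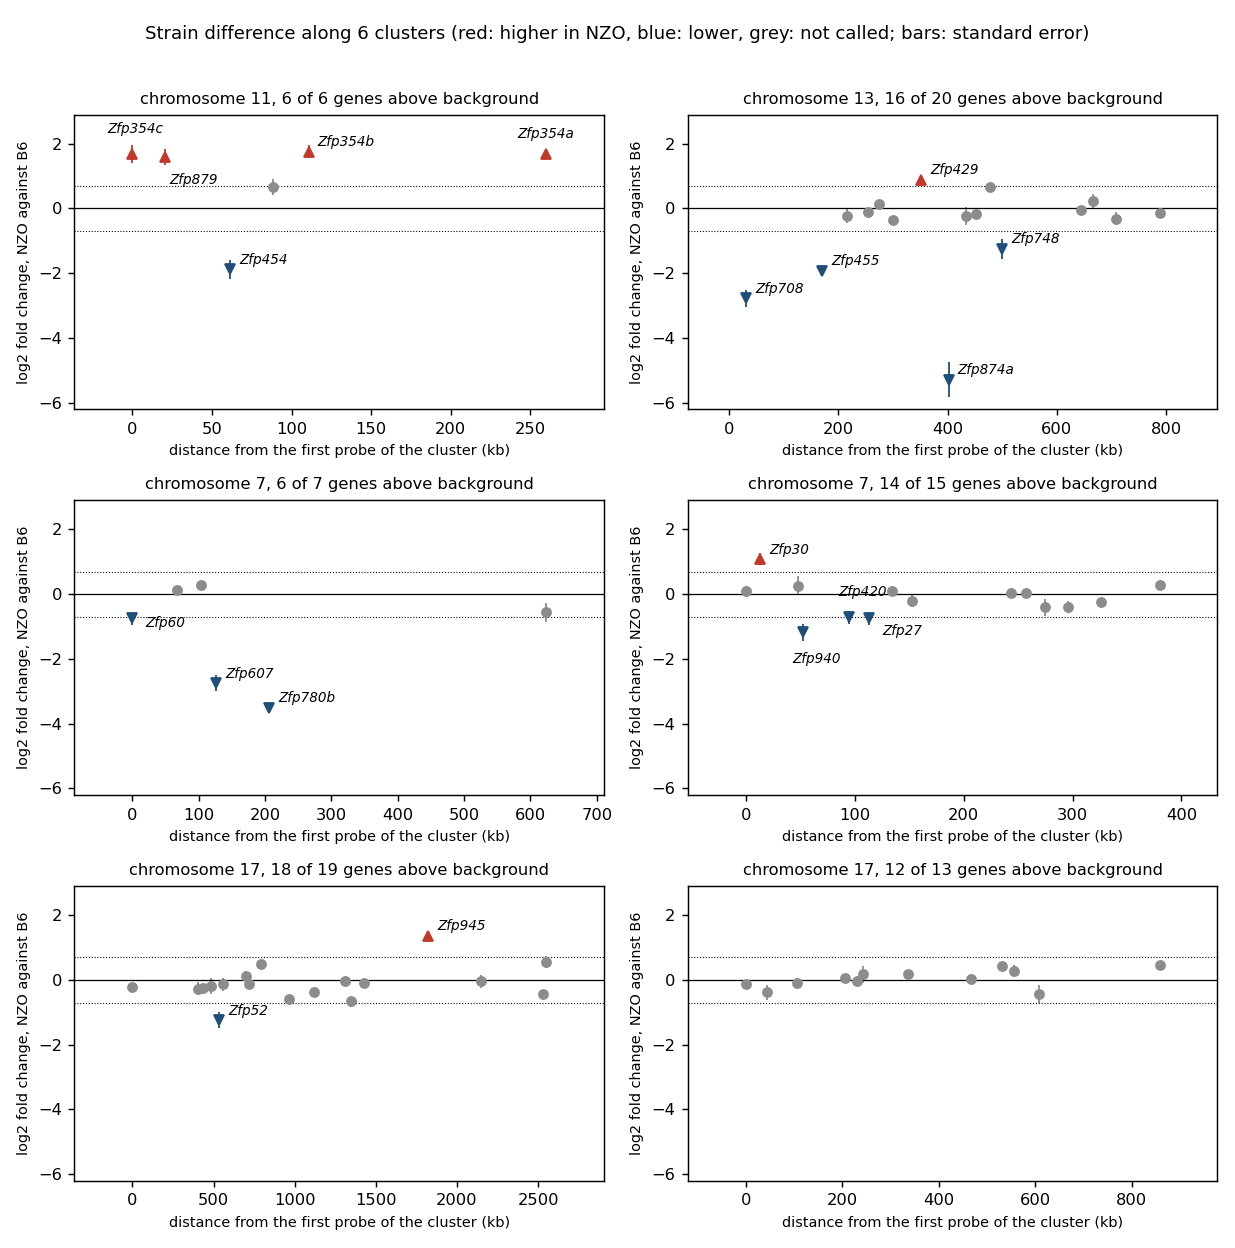
Log2 fold change of NZO against B6 (y axis) by distance in kb from the first probe of the cluster (x axis) for the measured genes of 6 clusters, on chromosomes 11, 13, 7, 7, 17 and 17; triangles are called genes, grey dots genes not called, bars standard errors and dotted lines the threshold of 0.7. On chromosome 11 Zfp354a, Zfp354b and Zfp879 lie between 1.59 and 1.76, and on chromosome 13 Zfp874a, Zfp455 and Zfp748 lie between -5.29 and -1.25 beside genes near 0; the points of Zfp354c and Zfp708, found in 1 strain alone, are fitted values and no measured size.

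On chromosome 13 a cluster of 20 genes (chr13:67139715-67927687), of which 16 were measured, held 4 lower genes and 1 higher. All 4 lower genes had entered through B6 alone, the strain where they are high, so their count is a description (beside 9.46% of all genes called and 5.02% lower). Of the family's genes on chromosome 13 above background on all 8 arrays, 0 were lower past the fold threshold at limma's adjusted or unadjusted p. This is the region of the Rsl genes, zinc finger repressors known to restrain male-specific gene expression in mouse liver. The largest difference of the family was that of Zfp874a. Its levels were -5.93, -3.47, -3.60 and -3.33 in NZO, above background on 3 arrays, and 1.18, 1.33, 0.96 and 1.36 in B6. The fitted difference was -5.29 on the log2 scale (standard error 0.54, adjusted p 0.000392), including the dim NZO 007, or -4.67 without NZO 007, the array that lay lowest. Its paralog Zfp874b, with the next measured probe 30.8 kb away, had a log2 fold change of -0.24 (0.28, adjusted p 0.61).

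Zfp708, whose protein is known to bind retroelements of the RMER19B type, lay at -2.18, -1.87, -2.47 and -2.02 in B6 and was not above background on any NZO array, which made it at least 3.81-fold lower in NZO (adjusted p 0.000262). Zfp455, the next measured gene, lay at -4.13, -3.48, -3.54 and -3.67 in NZO (above background on 2 arrays) and at -1.74, -1.92, -1.70 and -1.75 in B6, a fitted log2 fold change of -1.92 (0.15, adjusted p 9.83e-05). Zfp748 had -1.25 (0.32, adjusted p 0.0331, above background on 3 NZO arrays). Zfp429 was higher in NZO, at -1.0004, -0.63, -0.61 and -1.06 against -1.41, -1.80, -1.88 and -1.77 (0.89, standard error 0.15, adjusted p 0.00587), 51.1 kb from Zfp874a. The other 11 measured genes of the cluster were not called, with log2 fold changes from -0.35 for Zfp953 to 0.65 for Zfp87. The median of the cluster was -0.19, beside 0.03 for all genes.

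The promoters of these genes shared a word. In the windows of 7 called genes of the chromosome 11 and 13 clusters, RefSeq's 250 bases before the start site (GRCm38.p6), the longest run of letters found in all 7 on either strand, with 2 adjoining letters left free, was TGGGANNTGTAGT. The word was then searched on both strands of all windows, taking the first listed start of a gene. Its letters belong to the sequence that Zfp143, a zinc finger activator, is known to recognise. It stood in 15 of 15 windows on chromosome 13, 3 of 4 on chromosome 11, 10 of 13 in the chromosome 7 cluster around Zfp30 and 2 of 6 in that around Zfp780b. Of 248 genes of the family with a window, 43 held it (17.3%), 37 of 133 in clusters and 6 of 115 outside, while 393 of 27025 windows of all genes did (1.45%). Both clusters on chromosome 17 held it in 0 of 16 and 0 of 11 windows. Among called genes 13 of 28 windows held it and among the others 30 of 220. The word was taken from 7 of the called genes, so these shares are a description. Zfp143 itself had a log2 fold change of -0.29 (0.16, adjusted p 0.30).

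Stretches of the windows around the word, with the word in capitals, are shown in gene orientation with GRCm38 positions. They come from called genes of the chromosome 13 and 11 clusters other than Zfp748, whose window also held the word. In Zfp354b it lies on the other strand, and the flanks of the 4 chromosome 13 genes share further letters before the word:
Zfp874a chr13:67451625-67451682: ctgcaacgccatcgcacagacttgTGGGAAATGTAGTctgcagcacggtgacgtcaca
Zfp708 chr13:67081562-67081622: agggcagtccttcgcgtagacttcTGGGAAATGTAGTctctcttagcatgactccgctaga
Zfp455 chr13:67194425-67194485: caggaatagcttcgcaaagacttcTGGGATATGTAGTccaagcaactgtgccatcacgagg
Zfp429 chr13:67399803-67399863: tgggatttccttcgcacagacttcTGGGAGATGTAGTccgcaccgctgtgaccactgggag
Zfp879 chr11:50841577-50841637: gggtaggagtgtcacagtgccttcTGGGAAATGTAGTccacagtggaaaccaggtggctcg
Zfp454 chr11:50887642-50887702: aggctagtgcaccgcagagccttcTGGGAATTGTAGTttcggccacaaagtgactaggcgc
Zfp354b chr11:50931657-50931717: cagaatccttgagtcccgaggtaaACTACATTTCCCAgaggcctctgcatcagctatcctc
The genes with the word thus included both directions, lower (Zfp874a, Zfp708, Zfp455) and higher (Zfp429, Zfp879, Zfp354b). By other words of the same windows, the family held CCAAT in 42.3% (all genes 34.2%), GGGCGG in 40.7% (32.7%) and TATAAA in 6.45% (12.9%), each on either strand.

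**Figure D3:**
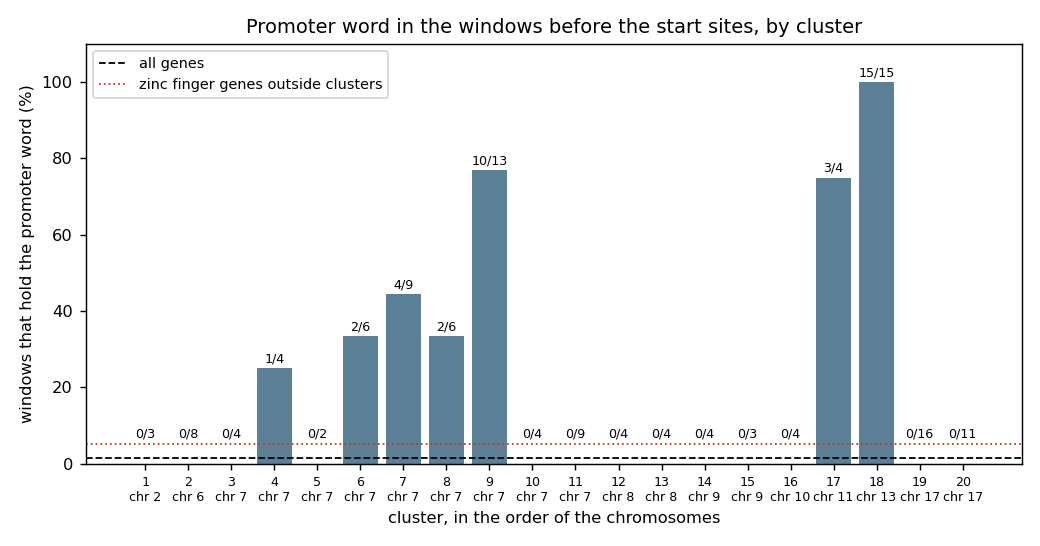
Share of the windows of 250 bases before the start site that hold the promoter word (y axis, percent) in each of the 20 clusters (x axis, with the chromosome under the cluster's number); the number above a bar is windows with the word over windows. The bars reach 15 of 15 for cluster 18 on chromosome 13 and 10 of 13 for cluster 9 on chromosome 7, the dashed line shows 1.45% of all genes and the dotted line 5.22% of the zinc finger genes outside clusters.

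Chromosome 7 carried 74 of the 293 genes and 9 of the 20 clusters, and 8 of the 74 genes were called (10.8%, beside 9.46% of all genes). In the cluster at chr7:28538650-29161940, 3 of 6 measured genes were lower in NZO. As Zfp607 and Zfp60 had entered through B6 alone, this count is also a description, and 1 of the 4 genes above background on all 8 arrays was lower (Zfp780b), beside 7.79% of all such genes called. Zfp780b lay at -3.67, -3.25, -3.22 and -3.61 in NZO and at 0.18, 0.02, -0.03 and 0.12 in B6, above background on all 8 arrays. Its log2 fold change of -3.51 (0.13, adjusted p 2.74e-06), an 11.4-fold difference, was the largest among genes measured on all arrays, and it was -3.24 on the shared slide. Zfp607 (now Zfp607a), 79.4 kb before it, lay at -5.11, -4.44, -3.84 and -4.24 in NZO, above background on 1 array, and at -1.45, -1.61, -1.77 and -1.83 in B6 (adjusted p 0.000205). The difference of -2.74 (standard error 0.25) is a fitted value that includes the dim NZO arrays. Zfp60 had -0.75 (0.21, adjusted p 0.0461, 3 NZO arrays above background), while Zfp626 and Zfp59 between them had 0.12 and 0.28 and were not called. Zfp36, at the far end, encodes tristetraprolin, a finger protein of another type that binds AU-rich RNA, and had -0.55 (0.29, adjusted p 0.26).

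The starts of the Zfp874a and Zfp780b probes, the only ones whose calls held under every alternative that could test them, and of the Zfp963 probe, the largest increase, are given in the order of the files. They show that each call of this size rests on 1 probe of 60 bases, since none of the 3 genes had a further probe above background on all arrays of a strain (a further Zfp874a probe was so on 2 B6 arrays and 0 NZO arrays):
Zfp874a chr13:67541780-67541839: cctgtacctctgtatctgttgttgtggtat
Zfp780b chr7:28744837-28744896: caagcctagctatataatgactttaagtcc
Zfp963 chr8:72265659-72265718: tcttcagatatggtatacctcatatgtgag
The genome sequence of NZO at these probes was not analysed here.

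In the next cluster of chromosome 7 (chr7:30566378-30946287), 14 of 15 genes were measured, 1 higher and 3 lower. Of all genes 4.44% were higher and 5.02% lower. Zfp420 had entered through B6 alone, the strain where it is high, so this count too is a description. Zfp30 lay at -0.52, -0.30, -0.84 and -0.59 in NZO and at -1.72, -1.46, -2.05 and -1.30 in B6 (log2 fold change 1.07, standard error 0.19, adjusted p 0.00585). The 3 lower genes were neighbours. Zfp940 had -1.18 (0.27, adjusted p 0.021), and its NZO and B6 values overlapped, since NZO 003 lay at -0.71 and B6 011 at -0.74. Zfp420 had -0.71 (0.20, adjusted p 0.0455, 3 NZO arrays above background) and Zfp27 -0.75 (0.19, adjusted p 0.0355). Zfp260, the brightest probe of the cluster with a mean level of 3.30, had -0.23 (0.11, adjusted p 0.21). Zfp568, known to repress a promoter of the growth factor gene Igf2, had 0.03 (0.13).

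Further clusters held at most 1 higher and 1 lower gene. On chromosome 8 (chr8:71752264-72285350) the largest increase of the family, that of Zfp963, stood beside genes that were not called. Zfp963 lay at -1.94, -1.41, -1.56 and -1.77 in NZO and at -3.80, -3.18, -3.72 and -3.98 in B6, a log2 fold change of 2.0006 (0.19, adjusted p 0.000285). Its neighbours Zfp869 and Zfp866, 36.6 kb and 19.7 kb away by probe start, had -0.19 (0.14) and 0.11 (0.10). Zfp930, at the other end of the same cluster, was lower by -0.72 (0.10, adjusted p 0.00168), and its probe shares a run of at least 20 bases with probes of 9 other genes. Its dimmer probe, which shares such a run with 1 other gene, gave -2.25 and was also above background on all 8 arrays.

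The chromosome 17 cluster at chr17:21165104-23712977 was the longest, with 18 of 19 genes measured. Zfp945 was higher in NZO, at -0.78, -0.66, -0.54 and -0.72 against -2.20, -1.88, -2.02 and -2.06 in B6 (1.36, standard error 0.10, adjusted p 8.1e-05), and its further probe gave 1.40. Zfp52 was lower (-1.24, 0.24, adjusted p 0.0104, 2 NZO arrays above background). The median of the cluster was -0.16, beside 0.03 for all genes. Zfp943, Zfp947, Zfp758 and Zfp213 passed the adjusted p but not the fold threshold, with log2 fold changes of -0.60, -0.36, -0.66 and -0.45, though a further probe of Zfp758 at a like mean level gave -2.49 (adjusted p 0.00256 over all probes, 3 NZO arrays above background). The second chromosome 17 cluster (12 genes measured) and the chromosome 7 cluster at chr7:134381189-135029191 (10 genes measured) held no called gene by limma's adjusted or unadjusted p. Their ranges were -0.43 to 0.45 and -0.17 to 0.28. Of all genes 9.46% passed at the adjusted and 11.9% at the unadjusted p, so few calls would be counted among 12 or 10 genes. Of the clusters not yet named, 1 on chromosome 7 held Zfp61 (0.72, 0.11, adjusted p 0.00334), 1 on chromosome 6 held Zfp783 and 1 on chromosome 10 held Zfp433 (-0.82, 0.12, adjusted p 0.00239). A further probe of Zfp61, above background on 2 NZO and all B6 arrays, had a fitted value of -0.92 and did not pass. The mean over the probes of Zfp61 was -0.10. Zfp783 was above background on all B6 and no NZO arrays and at least 1.25-fold lower in NZO (adjusted p 0.0406).

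Outside clusters 6 genes were higher in NZO. Zfp369, which encodes a partner of the neurotrophin receptor, lay at -0.30, -0.59, -0.40 and -0.45 in NZO and at -1.52, -2.47, -2.56 and -2.14 in B6, with no overlap. Its log2 fold change was 1.74 (0.22, adjusted p 0.00122), whereas its paralog Zfp110 had -0.07 (0.12, adjusted p 0.74). Zfp949 (1.32, 0.17, adjusted p 0.00133) lay at 0.57, 0.56, 1.07 and 0.85 against -0.17, -0.67, -0.76 and -0.63, and its further probe gave 1.44. Zfp518b (1.23, 0.10, adjusted p 0.000127) and Zfp647 (0.83, 0.19, adjusted p 0.0226) were both dim, with B6 means of -3.34 and -3.18. Zfp697 was above background on 4 NZO arrays and on no B6 array, and at least 2.50-fold higher in NZO (adjusted p 0.000344).

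Zfp423, known for its role in the commitment of fat cell precursors, lay at -1.52, -2.11, -0.90 and -1.66 in NZO and at -2.64, -2.85, -2.55 and -2.21 in B6. The log2 fold change was 1.02 (0.25, adjusted p 0.0312), and the groups did not overlap. The 4 lower genes outside clusters were Zfp933, Zfp386, Zfp182 on chromosome X and Zfp932. Zfp386 was lower on 3 probes, by -1.08 (0.13, adjusted p 0.000841), -1.22 and -0.49, of which the last did not pass. Its brightest probe lay at 0.85, 0.94, 1.32 and 0.86 in NZO and at 2.21, 1.97, 2.01 and 2.11 in B6. Zfp932, whose protein is known to silence endogenous retroviruses of the ERVK class, lay at 0.32, 0.14, 0.62 and 0.46 against 0.98, 1.22, 1.00 and 1.20 (-0.72, standard error 0.13, adjusted p 0.00653). Its further probe, above background on all 8 arrays, gave -0.10 and did not pass (limma adjusted p 0.72 over all probes above background). The call of Zfp932 was lost when its probes were averaged. Zfp182 had -0.79 (0.16, adjusted p 0.0127).

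**Figure D4:**
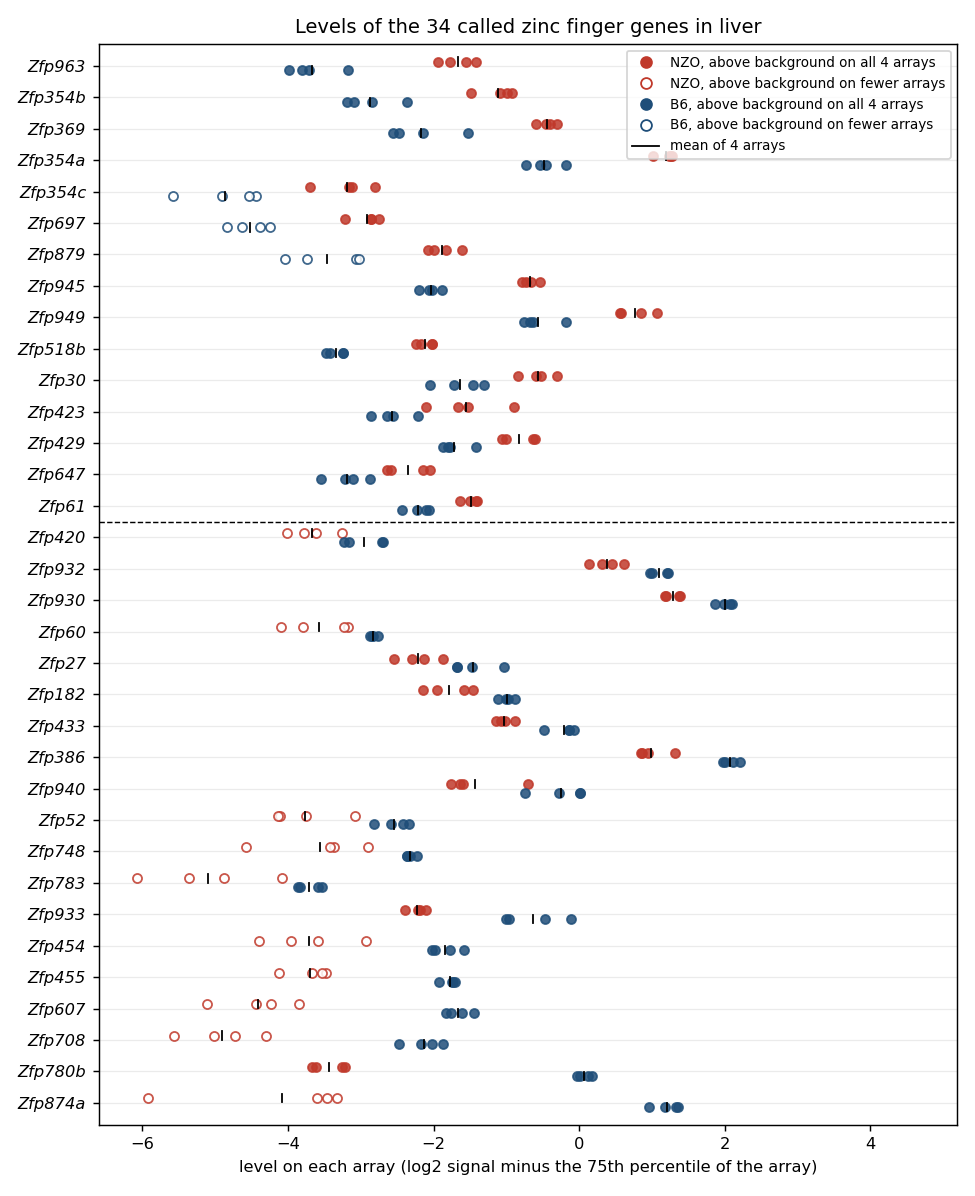
Level on each array (x axis, log2 signal minus the 75th percentile) of the 34 called genes, ordered by log2 fold change; red points are NZO and blue points B6 arrays, open points belong to a strain not above background on all 4 arrays, ticks are means, and the dashed line parts higher from lower genes. The strains overlap for Zfp940 alone, and NZO points are open for 10 of the 19 lower genes.

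Of the 34 calls, 22 held when each array was left out in turn, by the same test. The other 12 were lost without at least 1 array, always with the sign kept. Zfp182 was lost without NZO 003 alone (values without an array from -0.90 to -0.67). Zfp61 was lost without NZO 003, NZO 011 or B6 011 (0.65 to 0.77), Zfp647 without NZO 003, NZO 009, B6 011 or B6 009 (0.71 to 0.93), and Zfp932 without NZO 007, NZO 003, B6 010 or B6 009 (-0.80 to -0.63). Zfp930 was lost without NZO 007, NZO 003, B6 010 or B6 015 (-0.76 to -0.69), Zfp423 without NZO 007, NZO 011 or any B6 array but 009 (0.80 to 1.20), and Zfp940 without NZO 009, NZO 011 or any B6 array but 011 (-1.41 to -1.06). The calls lost without the most arrays were those of genes in clusters on chromosomes 7, 13 and 6. Zfp27 (-0.86 to -0.60) and Zfp420 (-0.85 to -0.60) were both lost without any array but NZO 009 and B6 015, and Zfp60 (-0.88 to -0.57) without any but NZO 009 and NZO 011. Zfp748 (-1.47 to -0.91) was kept without NZO 003 or NZO 011 only, and Zfp783 (fitted values of -1.74 to -1.07) without NZO 009 only.

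Where a gene had several probes above background, their log2 fold changes differed strongly in some genes. In 95 genes with 116 further probes, the median range of log2 fold changes within a gene was 0.27. Of the 11 such genes called by their brightest probe, 6 had a further probe with the same call: Zfp27, Zfp354a, Zfp386, Zfp930, Zfp945 and Zfp949. Conversely, 8 genes were not called but had a further probe past the thresholds (limma adjusted over all probes above background), 6 of them lower and 2 higher in NZO. This count is a description. When each gene was taken by its probe with the smallest p, 18 of the 293 genes were higher and 25 lower, and 11.6% of all genes passed. Zfp74, in the chromosome 7 cluster of Zfp30, had -0.22 (0.18) on its brightest probe, with all 8 arrays above background, while its 2 dimmer probes were above background on all B6 and no NZO arrays and at least 1.91-fold and 1.80-fold lower in NZO. Zfp14 and Zfp944 likewise had a probe found in B6 alone, at least 1.44-fold and 2.74-fold lower in NZO, beside brightest probes at 0.03 and -0.04. Zfp672, above background on all arrays, had 0.20 on one probe and -1.32 on the other. The rest of the 8 were Zfp758, Zfp867 (-1.01 on its further probe), Zfp191 (0.89) and Zfp961 (1.09).

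Zfp933 gave -1.59 (0.20, adjusted p 0.00127) on its brightest probe, at -2.40, -2.10, -2.18 and -2.22 in NZO and -0.11, -0.999, -0.96 and -0.47 in B6, and 0.29 on the other. The second probe holds the codons of a finger linker (TGEK, in capitals) and shares at least 20 bases with probes of 8 other genes, while the first lies 2.91 kb downstream on the gene's strand and holds none. The linker probe of Zfp386 shares such a run with 9 genes, and both are shown to give the part of these genes that is alike between members:
Zfp933 chr4:147200007-147200066: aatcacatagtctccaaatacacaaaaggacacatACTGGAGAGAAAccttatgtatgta
Zfp386 chr12:117298639-117298698: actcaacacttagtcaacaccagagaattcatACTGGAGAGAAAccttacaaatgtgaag
Such linkers were found in 14 probes of the family, 6 of which stood for their gene, and 17 of the 293 representing probes shared 20 bases or more with a probe of another gene. Signal from such another gene cannot be told apart from that of the gene itself on these probes.

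**Figure D5:**
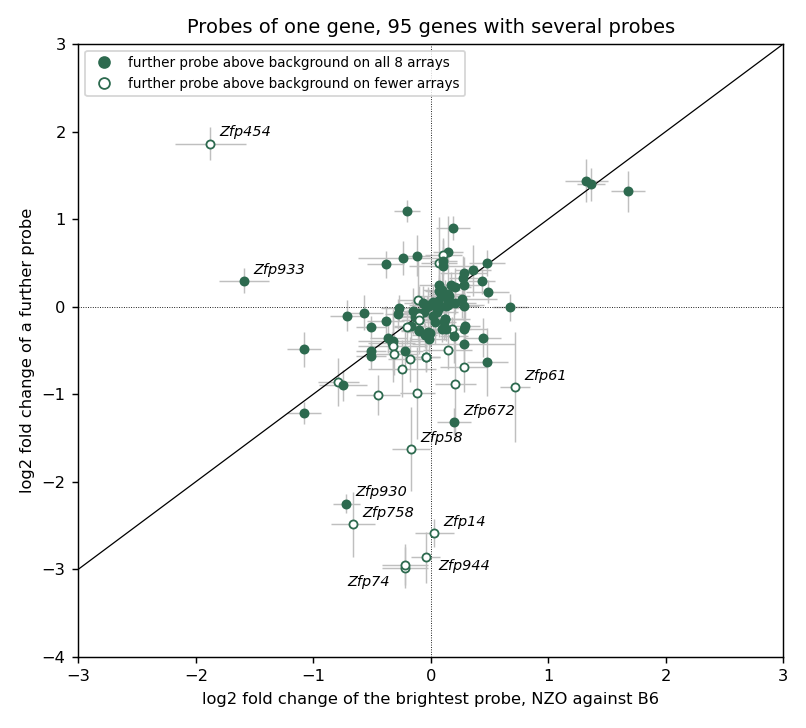
Log2 fold change of each of 116 further probes (y axis) against that of the brightest probe of the same gene (x axis) in 95 genes; filled points are further probes above background on all 8 arrays, open points those on fewer, bars standard errors and the line equality. An open point of a probe found in 1 strain alone is a fitted value and no measured size, as for Zfp454 far above the line and for Zfp74, Zfp14 and Zfp944 far below it, and Zfp354a, Zfp945 and Zfp949 lie near it above 1.

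The brightest probes of the family did not differ between the strains past both thresholds. The 10 brightest were those of Zfp628, Zfp408, Zfp791, Zfp622, Zfp692, Zfp658, Zfp771, Zfp768, Zfp259 (now Zpr1) and Zfp706. Of these 10, 0 were called at the adjusted or the unadjusted p. Of all 6714 genes in the brightest range, 6.15% passed by limma's adjusted p. At the unadjusted p, 270 of them were higher and 177 lower. Few calls would thus be counted among 10 genes, and the 0 is a description. Zfp408 lay at 8.08 ± 0.24 in NZO and 8.70 ± 0.03 in B6 (SD, n = 4 each), and its log2 fold change of -0.62 (0.13) passed limma's adjusted p (0.0126) but not the fold threshold; its probe shares 20 bases or more with 10 other genes' probes. Zfp628, at 10.3 ± 0.16 and 10.1 ± 0.08, gave 0.28 (0.11, adjusted p 0.13). Its probe has 86.7% G and C, the highest of the family, where the median is 40%, and its further probe, at 53.3%, had a mean level of 0.44 against 10.2. The starts of both show the difference in composition:
Zfp628 brighter probe chr7:4871046-4871105: cgcacccacggccctgcccccggccccgcc
Zfp628 dimmer probe chr7:4873434-4873493: cagaacttgccctccatccagattgtgcag

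A list of 28 members of known function held 25 measured genes, with a median log2 fold change of -0.02, and 2 of them were higher (Zfp369, Zfp423) and 2 lower (Zfp708, Zfp932), beside 9.46% called among all genes. Zfp57 and Zfp445, which keep the methylation of imprinted regions, had -0.01 (0.10) and 0.00 (0.22). Zfp809, which silences retroviruses through their primer binding site, had 0.10 (0.28), with an SD of 0.55 within B6. Zfp106 had 0.54 (0.12, adjusted p 0.0161), and Zfp467, known for a part in the choice between bone and fat cell fate, had -0.51 (0.11, adjusted p 0.0168). Both passed the adjusted p without reaching the fold threshold. The list was chosen with results of these arrays known.

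Of 13 genes through which KRAB zinc finger proteins repress, 12 were measured, 0 higher and 3 lower in NZO, with a median of -0.15, where 9.46% of all genes were called and 5.02% were lower. Trim28, the corepressor itself, had 0.19 (0.09, adjusted p 0.23) and Setdb1 -0.08 (0.12). Chd3, a helicase of the NuRD complex, lay at 3.55 ± 0.14 in NZO and 4.62 ± 0.11 in B6 (SD, n = 4 each), a log2 fold change of -1.07 (0.11). Uhrf1, which reads hemimethylated DNA in dividing cells, had -0.97 (0.18) and Atf7ip, a partner of Setdb1, -0.72 (0.10). The adjusted p by limma was 0.000346 for Chd3, 0.00921 for Uhrf1 and 0.00157 for Atf7ip. Hdac1 had -0.48 (0.10, adjusted p 0.0168), below the fold threshold. In the related Zbtb family, whose proteins join zinc fingers to a BTB domain, 1 of 35 genes was higher and 1 lower, and in the Zscan and Zkscan genes 0 of 15 were called by limma's adjusted or unadjusted p.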

How the data were processed

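Liver RNA of 4 NZO and 4 B6 mice was measured on 1-colour Agilent arrays. The authors deposited the scanner output, made with Feature Extraction 11.0.1.1 per the file headers (the submitters' processing notes name 9.1), and a summary named as normalized. Both hold intensity values. In the processed signal, the software had subtracted the background and detrended each array, and no array was scaled to another. The summary equals the raw median intensity for 59305 of 59305 spots on each array (tolerance 0.01) and was used only as an alternative.

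From the deposited intensities, log2 processed signals minus the 75th percentile of each array were computed, leaving out controls and the 96 to 137 spots per array marked as outliers. The percentile ranged from 119 to 142 in NZO and from 136 to 159 in B6, 50.4% to 60.1% of spots were well above background, and 0 were saturated. The number of arrays limits the precision. Probes above background on all arrays of a strain were kept (27623 of 55681), and the brightest stood for its gene name in the files. The strains were compared without a block in R 4.3.3 by limma 3.58.1 after reading with data.table (version 1.17.8), and tables and plots were made in Python 3.11.15 (pandas 2.3.3, matplotlib 3.10.9). The test was checked on simulated data. The labels number the livers and say nothing of litters or separate cohorts, so p-values measure only the spread between these samples. The arrays lay on 5 slides, 1 of them with both strains (NZO 003, B6 010 and B6 015), and were scanned on 2 days.

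Probe positions are those of the files (mm9), for which no annotation was used here. All 293 members matched the RefSeq table of GRCm38.p6 (279 by accession, 14 by symbol), 3 under a new symbol, and 291 on the same chromosome. Zfp28 counted on chromosome 5 by its brightest probe, while RefSeq and its further probe place it on chromosome 7, and Zfp131 lay on an unplaced part of chromosome 13. Neither was called or counted in a cluster. Of the members 248 had a promoter window in it. Names followed a rule: the largest changes above background on all arrays (up to 12 each way), genes found in 1 strain with a bound of 4-fold (none), called cluster genes, the 10 brightest, genes with opposite probes, and the lists of known function and corepressors. Further genes in the text (Zfp697, Zfp74, Zfp14, Zfp944, Zfp672, Zfp758, Zfp867, Zfp191, Zfp961 and uncalled cluster neighbours) were picked after their values were seen. The members and lists were chosen with earlier results of these data known. Alternatives were normexp (offset 50), quantile normalization, the deposited table, other probe filters and choices, slide, scan day or mouse number as a block, the methods' t-test, leaving out each array, and cluster gaps of 250 and 1000 kb.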

Additional observations from a re-analysis of the deposited data

Results flagged for a closer look

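A single array stood far from the other 3 of its strain in 13 of the 198 strain groups examined (named members and the genes of the lists), by Dixon's criterion for 4 values, and chance alone gives about 1 group in 20. Among zinc finger genes, Zfp874a lay lowest on NZO 007 (-5.93), Zfp354a was lowest on NZO 007 (1.02), Zfp281, a regulator of pluripotency genes, was lowest there too (1.62), Zfp940 was highest on NZO 003 (-0.71) and Zfp622 was highest on NZO 009 (5.68). The other groups were Chd3 on B6 011 (4.78), Tat on B6 011 (5.77), Cela1 on B6 015 (-2.55), Ctrb1 on B6 011 (-0.23), Itgax on B6 015 (-1.18), Cd68 on NZO 007 (1.79), Acta1 on NZO 007 (2.81) and Tnnt3 on NZO 007 (1.27). NZO 007 accounted for 6 of the 13.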

How the results depend on the processing

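Of the 34 calls, 22 were kept without each array in turn, and 2 (Zfp780b and Zfp874a) under every alternative that could test them. Leaving out each array in turn gave 13 to 15 higher genes (15 with all arrays), 11 to 20 lower genes (19), 2 to 3 of the corepressor genes (3) and 18 to 23 called genes in clusters (24). In these fits 8.31% to 9.53% of all genes passed, against 9.46% with all arrays. Normexp background correction, whose offset of 50 compresses dim signals by construction, left 4 higher and 4 lower genes, 4 in clusters and 1 corepressor gene. With the slide as a fixed block there were 7 higher, 8 lower, 10 in clusters and 1 corepressor gene, and the deposited table gave 6 higher genes. Requiring all 8 arrays above background, which tests fewer genes, gave 9 lower genes and 12 in clusters. The methods' t-test with Benjamini-Hochberg adjustment gave 10 lower and 13 higher genes, and 19 lower and 15 higher by its unadjusted p, the rule of the methods. Quantile normalization (16 higher, 15 lower), the scan day as a block (15 and 17), the slide as a random block (16 and 18) and no filter on dim probes (14 and 16) stayed within 1.5 times, and neighbour gaps of 250 and 1000 kb gave 22 and 25 called genes in clusters. The share of all genes that passed changed too. It was 4.58% under normexp, 4.71% with the slide as a fixed block and 7.47% with the deposited table. With all 8 arrays required it was 7.92%, and by the methods' t-test with adjustment 6.33%. Quantile normalization gave 9.21%, the scan day 9.93%, the slide as a random block 9.63% and no filter on dim probes 5.10%. Where no construction is named, the cause was not tested.

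The direction turned in 3 genes: Zfp783 was at 0.023 under normexp, Zfp61 at -0.10 as the mean over its probes, and Zfp454 at 1.86 by its probe with the smallest p, a fitted value since that probe was not above background on any B6 array.

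The strains shared only the mouse numbers 009 and 011, and the samples of these numbers did not deviate together (r = -0.26 and 0.0050 across genes). With the number as a replicate block, limma called 0 higher genes (17 at the unadjusted p), 2 lower (14), 0 corepressor genes and 2 genes in clusters, from a fit with few residual degrees of freedom. In that fit 0.60% of all genes passed at the adjusted p.

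The median signal over background, over all spots of an array, was 1.72 to 1.82 on the NZO and 1.79 to 2 on the B6 arrays, which limits what can be said of genes near background.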
